A study of Mus musculus with 2 samples.

Results

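The miR-26 family of the mouse consists of the genes Mir26b, Mir26a-2 and Mir26a-1, which lie inside the Ctdsp genes. They were followed here through the small RNA of the adrenal gland. The members were taken by gene identity, and all 3 of them were found among the 2202 miRNA genes counted in each library. The libraries were labelled as adrenal glands of 2 female mice of the strain B6CASTF1/J, whose animals inherit a laboratory (B6) and a wild-derived (CAST) chromosome set, aged 25 days. RNA under 30 nucleotides was sequenced from tissue labelled as adrenal gland, with 1 group and no treatment. The labels number the animals separately but carry the same donor identifier for both, so that the libraries may come from 1 animal. Differences between the libraries may hold dissection, library preparation and sequencing as well as the animals, which cannot be told apart. In the whole gland, fewer cells of a type and less RNA per cell cannot be told apart either.

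The members share a seed, the bases of a mature miRNA that pair with target messages, and are thought to bind largely the same messages. Targets known from mouse and human cells include Ezh2, a histone methyltransferase that silences genes. The host genes Ctdsp1, Ctdsp2 and Ctdspl encode small phosphatases that act on the tail of RNA polymerase II and help to keep neuronal genes silent in non-neuronal cells. A miRNA in an intron is usually cut from the host's primary transcript, and 1 hairpin can give a mature miRNA from each arm, named 5p and 3p. In zebrafish, miR-26b represses its host transcript ctdsp2 during neuronal differentiation.

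The mature sequences are shown because they decide which reads can be assigned to a single gene. All 3 members were found in the RefSeq table (GRCm38.p6), whose sequences are given 5′ to 3′ with the seed, bases 2 to 8, in capitals.
miR-26b-5p: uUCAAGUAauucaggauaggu
miR-26a-5p, from both Mir26a-2 and Mir26a-1: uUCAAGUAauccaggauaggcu
miR-26b-3p: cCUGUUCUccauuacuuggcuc
miR-26a-2-3p: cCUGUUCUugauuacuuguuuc
miR-26a-1-3p: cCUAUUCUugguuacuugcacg

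The 5p seed UCAAGUA was carried by 3 of 1738 mature entries of the table, those of the 3 members. Counted from 1 at the 5′ end, the substitutions of the Mir26b stretch against that of either copy were C11U and C21U within the first 25 bases, both outside the seed. Across 141767 annotated transcripts searched on both strands, miR-26b-5p matched Mir26b alone. In the same search miR-26a-5p matched Mir26a-1 and Mir26a-2 and no other gene. The 3p arms set the copies apart. They differed at 6 of 22 positions between Mir26a-1 and Mir26a-2, of which A4G lies in the 3p seed. By that base miR-26a-2-3p had the 3p seed CUGUUCU of miR-26b-3p, and miR-26a-1-3p had CUAUUCU.

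The hairpins show how far the copies stay alike around the mature 5p arm. In capitals is the stretch that both miR-26a hairpins hold without a difference.
Mir26a-2: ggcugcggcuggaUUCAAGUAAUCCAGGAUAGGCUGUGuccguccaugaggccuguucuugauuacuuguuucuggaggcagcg
Mir26a-1: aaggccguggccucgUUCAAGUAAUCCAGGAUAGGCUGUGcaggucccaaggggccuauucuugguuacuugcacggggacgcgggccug

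That stretch is 25 bases long. It starts at base 1 of miR-26a-5p and runs 3 bases past its 22 bases. The copies first differ downstream at position 26 (C26U, Mir26a-1 to Mir26a-2), and upstream at the base directly before the 5p arm. A read of the annotated miR-26a-5p therefore has 2 places of origin, and the tables keep reads with several places apart from the gene counts. The longest stretch that the Mir26b hairpin shares with Mir26a-2 is 10 bases and with Mir26a-1 11 bases.

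**Figure D1:**
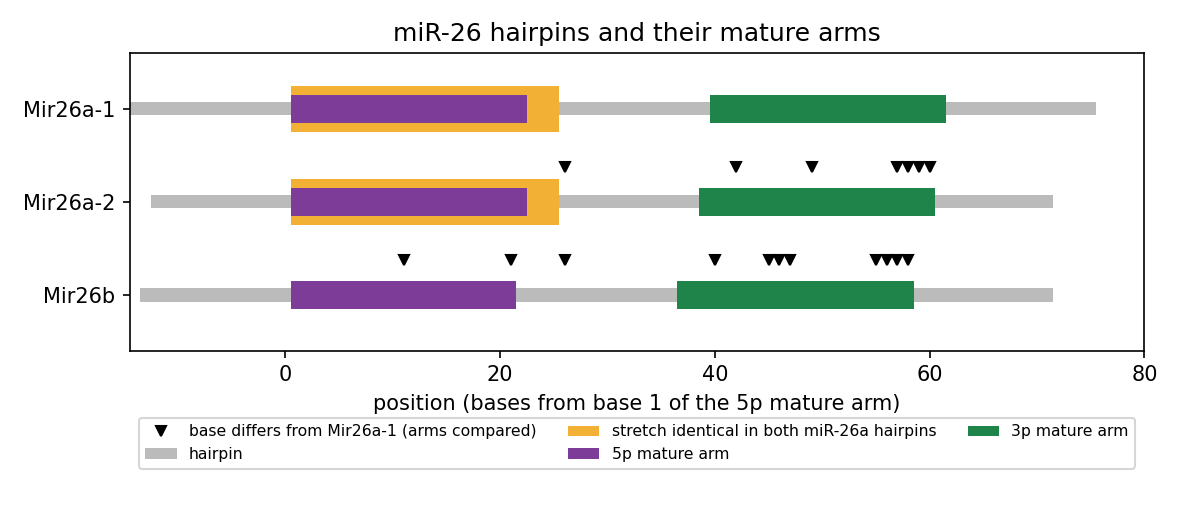
Hairpins of the miR-26 genes on a scale of bases from base 1 of the 5p mature arm, with the mature arms in colour and, in yellow, the 25 bases identical in both miR-26a hairpins. Triangles mark bases that differ from Mir26a-1 over positions 1 to 26 and within the 3p arm; between the miR-26a copies they appear only at position 26 and in the 3p arm.

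In mm10 coordinates, Mir26b (ENSMUSG00000065468.1) spans chr1:74394310-74394394 on the plus strand, 85 bases in intron 4 of the Ctdsp1 transcript with the most exons. That intron has 564 bases, and the next exon starts 245 bases after the miRNA gene. Mir26a-2 (ENSMUSG00000065430.1) spans chr10:126995530-126995613 on the plus strand, 84 bases in intron 5 of the Ctdsp2 transcript with the most exons, an intron of 1946 bases. Its last base is also the first exonic base of 2 shorter Ctdsp2 transcripts. Mir26a-1 (ENSMUSG00000065513.1) spans chr9:119031796-119031885 on the plus strand, 90 bases in intron 5 of the Ctdspl transcript with the most exons, an intron of 3283 bases. All 3 members thus lie on the strand of their host, and the host messages were not measured in these small RNA libraries.

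The reads assigned to the strand of miRNA genes numbered 2244073 in library 1, which was 28.3% of its 7938596 reads, and 3912280 in library 2, which was 35.1% of its 11132685 reads. Reads that mapped to several places numbered 2252189 in library 1 and 3064114 in library 2, which was 36.1 and 39.6 times the reads counted at the 3 members. How many of them were miR-26a was not measured. Levels are normalised read counts (CPM, a gene's reads per 1000000 reads on the strand of miRNA genes), and the intervals cover counting error only. Mir375, a miRNA of endocrine cells including those of the adrenal, had 37574 CPM in library 1 and 36561 CPM in library 2.

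Mir26b, the member with a mature sequence of its own, carried nearly all reads counted at the family. It had 60749 reads in library 1 and 77181 reads in library 2, or 27071 CPM (95% Poisson interval 26856 to 27287) and 19728 CPM (19589 to 19868). Its mean level of 23399 ± 5192 CPM (SD, n = 2) was the 14th of all genes, with Mir322 (24351 ± 8157 CPM) before it and Mir139 (21446 ± 11589 CPM) after it. These neighbours in the order did not differ from Mir26b beyond the spread between libraries. Mir26b made up 97.5% (95% Wilson interval 97.4 to 97.6) of the family's reads in library 1 and 99.9% (99.8 to 99.9) in library 2.

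Mir26a-2, a source of miR-26a in Ctdsp2, had 1540 reads in library 1 and 77 reads in library 2. These were 686 CPM (652 to 721) and 19.7 CPM (15.5 to 24.6), so the gene was the 96th by reads in library 1 and the 263rd in library 2. The mean of 353 ± 471 CPM (SD, n = 2) had an SD above itself and rested on library 1. Reads that match both copies are kept apart from the gene counts, so the counts of a copy do not give the level of miR-26a-5p. Which arm the counted reads came from was not measured.

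Mir26a-1, the source of miR-26a in Ctdspl, had 20 reads in library 1 and 25 reads in library 2, or 8.91 CPM (5.44 to 13.8) and 6.39 CPM (4.14 to 9.43). Its intervals in the 2 libraries overlapped, and its mean was 7.65 ± 1.78 CPM (SD, n = 2). None of the 3 members had a read on the opposite strand in either library.

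**Figure D2:**
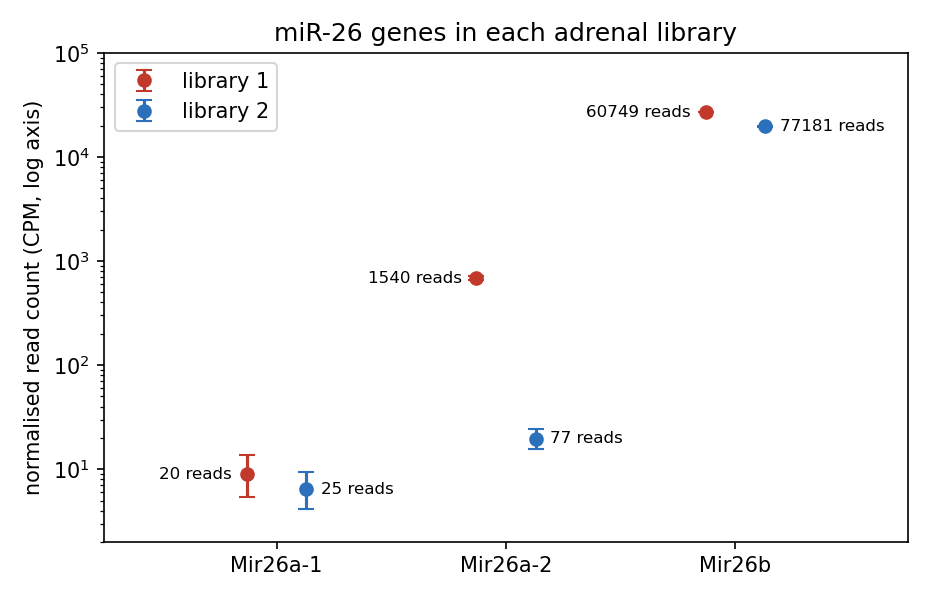
Normalised read counts (CPM, log axis) of the miR-26 genes in libraries 1 and 2, with 95% Poisson intervals and the number of reads beside each point. In libraries 1 and 2, Mir26b lies at 27071 and 19728 CPM, Mir26a-1 at 8.91 and 6.39 CPM and Mir26a-2 at 686 and 19.7 CPM.

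Within a library, the order of the members was Mir26b, Mir26a-2 and Mir26a-1 in both. The counts are of short reads and carry no correction for gene length. Per base of annotated gene the mean levels were 275 CPM for Mir26b, 4.20 CPM for Mir26a-2 and 0.0850 CPM for Mir26a-1, in the same order. These ratios compare counted reads and not the amounts of miR-26b and miR-26a, because a read of the annotated miR-26a-5p matches both copies.

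Mir26b had 3037 reads per Mir26a-1 read in library 1 (95% exact interval 1967 to 4973) and 3087 in library 2 (2091 to 4771). The ratio of the libraries' ratios was 0.984 (conditional exact 95% interval 0.525 to 1.87). With counting error alone, this interval still held changes of the unique gene against this copy of up to about 1.9-fold in either direction. Mir26b had 39.4 reads per Mir26a-2 read in library 1 (37.5 to 41.5) and 1002 in library 2 (802 to 1270). Here the ratio of ratios was 0.0394 (0.0309 to 0.0495). Between the copies, Mir26a-2 had 77.0 reads per Mir26a-1 read in library 1 (49.7 to 126) and 3.08 in library 2 (1.94 to 5.05). The ratio of ratios was 25.0 (12.6 to 49.5). The shift of Mir26a-2 therefore appeared against both other members, in ratios that need no scaling between libraries.

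Across all genes the libraries were compared with a two-sided exact binomial test of each gene's reads, which compares these libraries and not conditions. At an adjusted p of 0.05, 240 of 411 tested genes were called, which is 58.4%, with 29% higher in library 1 and 29.4% higher in library 2. Mir26b and Mir26a-2 were called among them as higher in library 1, a count over both directions near what this background gives, and Mir26a-1 was not (adjusted exact binomial p = 0.465). With a fold of 1.5 or more required, 31.4% of genes were called, and of the members Mir26a-2 passed.

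The log2 ratio of library 1 over library 2 was 0.37 for Mir26b (95% interval 0.36 to 0.39) and 0.40 for Mir26a-1 (-0.53 to 1.30). It was 5.03 for Mir26a-2 (4.71 to 5.39), which is 32.6-fold. The median of all 411 tested genes was 0.07, with quartiles of -0.47 and 0.53, so Mir26b and Mir26a-1 lay inside the middle range and Mir26a-2 outside it. Mir26a-2 had the highest ratio of all tested genes and the second in size after Mir451a, which was higher in library 2.

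With the spread between the libraries taken as the error, fewer genes stood out. In edgeR's exact test of 1 library against 1, with the common dispersion of the libraries (biological coefficient of variation 0.387), 5 of 411 genes were called, or 1.22%. These were Mir451a, Mir26a-2, Mir185, Mir144 and Mir122. Mir26b and Mir26a-1 were not called by edgeR (adjusted p = 1 for each). The dispersion came from the same 2 libraries, with no independent replicate on either side, so this count ranks genes against the general spread and is no test of a difference between animals.

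**Figure D3:**
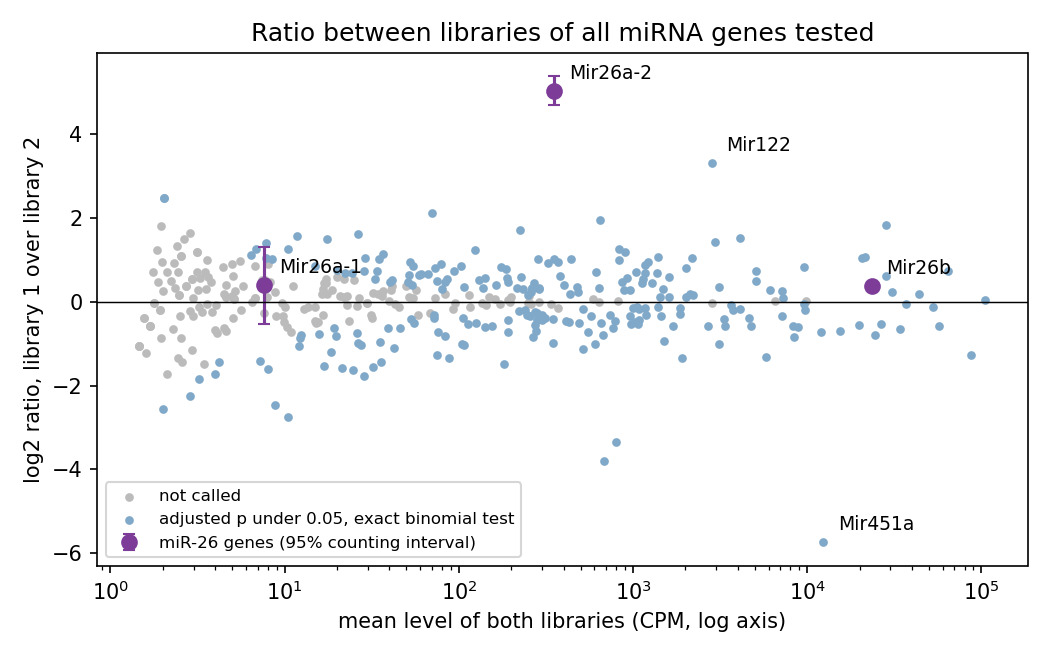
Log2 ratio of library 1 over library 2 against the mean level (CPM, log axis) of the 411 tested miRNA genes, with the miR-26 genes and their 95% counting intervals in purple. Mir26a-2 stands above all other genes at 5.03, while Mir26b and Mir26a-1 lie at 0.37 and 0.40.

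Among genes with 200 or more reads, those that followed Mir26a-2 in the excess of library 1 were the hepatocyte miRNA Mir122, Mir223 of neutrophils and mmu-mir-3535 in the nucleolin gene Ncl. Mir122 had 5185 CPM in library 1 and 491 CPM in library 2, and Mir223 had 116 CPM and 25.0 CPM. Other leukocyte markers did not go with Mir223 as a group, with Mir142 at 199 CPM in library 1 and 337 CPM in library 2, Mir155 at 341 and 335 CPM and Mir150 at 433 and 215 CPM. All 4 leukocyte markers summed to 1088 CPM in library 1 and 913 CPM in library 2. The 3 erythroid markers summed to 680 CPM in library 1 and 25715 CPM in library 2, most of it Mir451a with 480 and 24242 CPM. Mir144 had 152 and 1451 CPM, and Mir486 went the other way with a log2 ratio of library 1 over library 2 of 1.03. The endothelial marker Mir126a had 53763 and 121007 CPM. The smooth muscle and fibroblast markers summed to 28920 and 41791 CPM, carried by Mir143 with 27293 and 40553 CPM, while Mir145a had 847 and 789 CPM and Mir214 had 781 and 449 CPM. The part of these cell types in the Mir26a-2 reads was not tested.

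The likeness of other genes was measured as the mean absolute difference of log2(CPM + 1) over the 2 libraries. Closest to Mir26b were Mirlet7d at 0.25, Mir21a at 0.34 and Mir139 at 0.35. Mir26a-1 had the same read counts as Mir7688, and Mir3097 and Mir3067 lay at 0.05 and 0.06. For Mir26a-2 the closest genes were Mir223 at 1.44, Mir6538 at 1.62 and Mir3068 at 1.87. Thus no tested gene came closer to the Mir26a-2 levels than 1.44.

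Other miRNAs made from identical copies served to show whether copies usually moved apart between these libraries. Of 24 such miRNAs matched by symbol to the RefSeq table and with 10 or more reads, 22 had enough reads at each copy for a ratio. Mirlet7a-1 and Mirlet7a-2, with log2 ratios of 1.03 and 0.11, were not among the 24. The copies of miR-26a differed by 4.63 in their log2 ratios, the largest of the 22, against a median of 0.60 and a range of 0.02 to 2.03 in the other 21. The next were the Mir181a copies at 2.03 and the Mir29b copies at 1.74. In these, Mir181a-2 had 26 reads in library 1 and 21 reads in library 2, and Mir181a-1 had 160 and 533. Mir26a-2 held 98.7% of the reads of both copies in library 1 and 75.5% in library 2, and so was the leading copy in each.

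The copies of miR-103 and miR-30c, with members in host introns, lay closer together. Mir103-2 in Pank2 had 45 and 124 reads in libraries 1 and 2, and Mir103-1 in Pank3 had 9 and 16, a difference in log2 ratio of 0.66. Mir30c-2 had 609 and 906 reads and Mir30c-1, in Nfyc, 451 and 720, a difference of 0.10. The stretch shared around the mature sequence had 25 bases in miR-26a. It had 22 to 28 bases in the other miRNAs with a ratio for which both hairpins were at hand. The length in miR-26a was thus within their range.

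**Figure D4:**
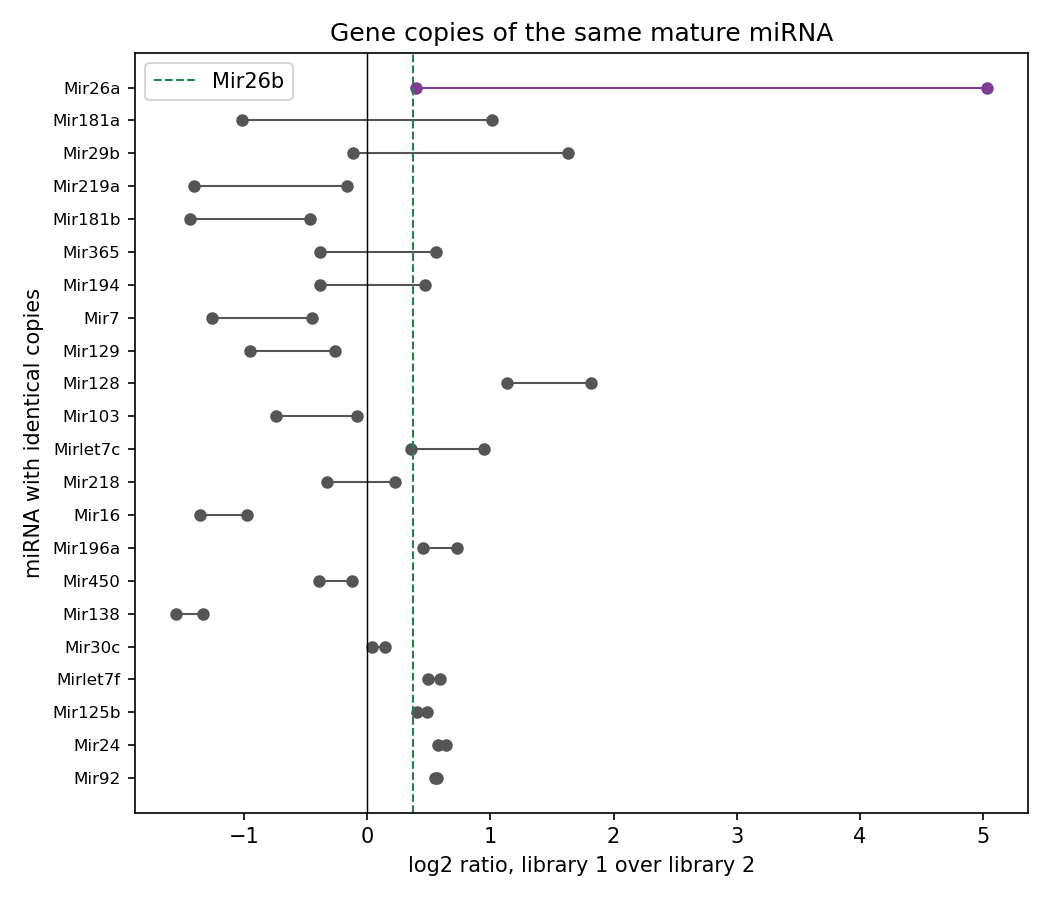
Log2 ratio of library 1 over library 2 for each gene copy of the 22 miRNAs made from identical copies, joined by a line, in order of the distance between copies, with Mir26b as a dashed line. The miR-26a copies at 0.40 and 5.03 lie farther apart than those of any other miRNA shown.

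Unique genes and identical copies of a family were also set side by side in 7 other families, chosen with their values known. Reads of the unique gene per read of the copies numbered 38.9 in library 1 and 757 in library 2 for miR-26. For Mir107 over the Mir103 copies, in introns of the Pank genes of coenzyme A synthesis, the ratio was 89.5 and 115. For 4 unique miR-30 genes over the Mir30c copies it was 57.2 and 72.8, and for Mir29a and Mir29c over the Mir29b copies 81.3 and 175. Mir7b had 12.8 and 12.6 reads per read of the Mir7 copies, and Mir181c with Mir181d had 4.37 and 3.65 per read of the Mir181a and Mir181b copies. The ratio was below 1 for Mir196b over the Mir196a copies, at 0.744 and 0.834, and for Mir92b over the Mir92 copies, at 0.0165 and 0.0214. Unique genes thus held more counted reads than the copies in 6 of these 8 families, miR-26 among them. The ratio was lower in library 1 than in library 2 in 6 of 8. Reads that match several places were kept apart from the gene counts, which can lower the copies. The full mature sequences of the unique genes were found at no other gene of the RefSeq table. Whether shorter or mismatched reads of the unique genes were also kept apart was not tested. The ratios therefore do not compare amounts of miRNA, and the numbers of genes summed on each side differ between families. The difference between families was not tested.

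**Figure D5:**
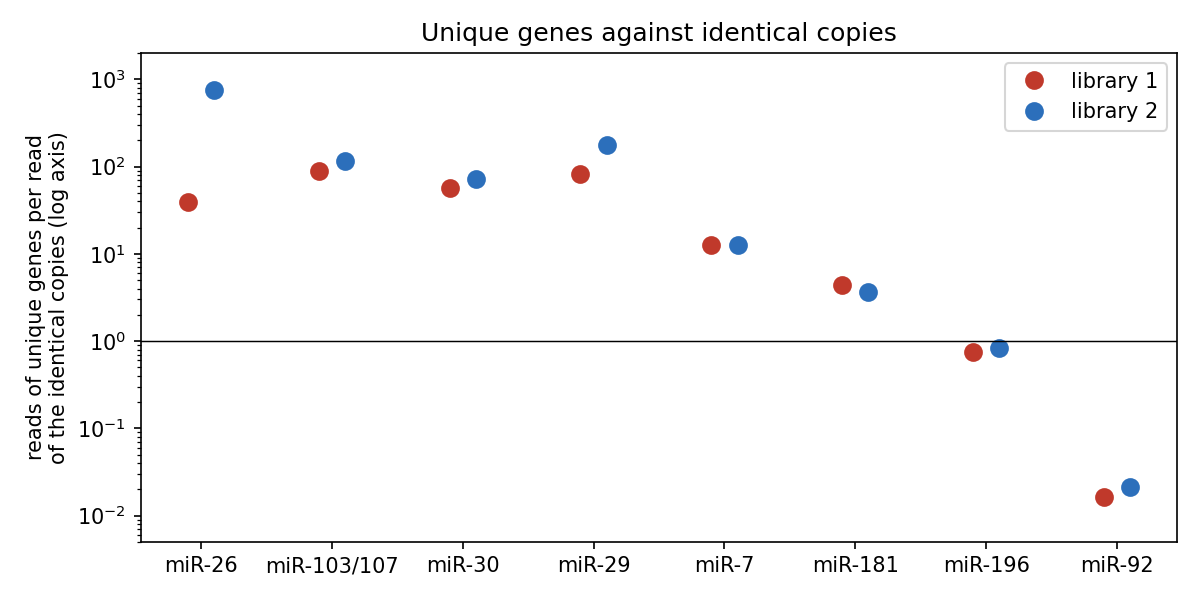
Reads of the unique genes per read of the identical copies (log axis) in libraries 1 and 2 for 8 miRNA families, with a line at 1. The miR-26 points lie at 38.9 and 757, farther apart than those of the other families shown, and the miR-196 and miR-92 points lie below the line.

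A list of other miRNA genes of host introns gave the setting for the family's place in the Ctdsp introns. Of 31 listed genes, 26 lay in an intron of a protein-coding gene on the same strand and all 26 were tested. Of these, 8 were higher in library 1, 11 were higher in library 2 and 7 were not called in the exact binomial test. The called genes were 73.1% of the list, beside 58.4% of all genes tested, of which 29% were higher in library 1 and 29.4% in library 2. Their median log2 ratio was -0.08, beside 0.07 for all genes tested. The most abundant of them were Mirlet7g in Wdr82 with 105134 ± 7328 CPM, Mir30e in Nfyc with 8815 ± 2236 CPM and Mir335 in the imprinted gene Mest with 8253 ± 1994 CPM (SD, n = 2 each). By mean level, Mir26b lay below Mirlet7g and above the other 25 genes. Among the called genes of the list, the log2 ratios ran from -3.81 for Mir185 to 1.13 for Mir128-1. Mir26a-2, at 5.03, lay above this range. The list took only genes that touch no annotated exon of the host. Mir26a-2, whose last base is exonic in 2 shorter Ctdsp2 transcripts, would not have passed that rule.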

How the data were processed

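The authors deposited raw read counts per miRNA gene, 1 table per library, with no normalization. Per the text deposited with the tables, reads were assigned on mm10 with the GENCODE M21 annotation. What aligner, counter and trimming were used is not given in the sources used here. Of the 3 count columns, the stranded one with the larger total was taken as the reads on the gene's strand. This meaning was inferred from the layout and the values. Neither library sizes nor tests used the 4 rows without a gene, which held unmapped reads (33.8% in library 1, 27.8% in library 2), reads with several mapped places (28.4%, 27.5%), ambiguous reads and reads outside miRNA genes (9.57%, 9.53%). All 2202 identifiers matched GENCODE M21, and 1032 symbols matched the RefSeq miRNA table.

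Genes with 10 or more reads summed were given an exact binomial test, in which a gene's total was fixed and the expected split came from edgeR's TMM library sizes, with Benjamini-Hochberg adjustment over all of them. A quasi-likelihood test had no coefficient with 1 group. Log2 ratios had 0.5 read added. The test was tested on simulated data that held counting error and no spread between libraries, so that trial does not cover such a spread. Copies of a miRNA are genes of 1 symbol stem with an identical RefSeq mature sequence, and a ratio was given where each copy had reads in both libraries and more than 3 in at least 1. PCR reads are not independent molecules, so intervals cover counting error only and can be too narrow. The binomial p-values take in counting error only, and those of edgeR also a spread estimated from these same 2 libraries. Neither is a test of a difference between animals. Python 3.11.15, scipy 1.17.1, R 4.3.3, edgeR 4.0.16 and DESeq2 1.42.0 (size factors only) were used.

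The members, the lists and the tests were chosen with earlier results of these data known. Named genes are the members, the 3 nearest genes to each, the copies of other miRNAs, the 3 most abundant genes of the intron list, the 3 genes next in the excess of library 1 and the markers. The genes called by edgeR, and the genes of the families compared outside that rule, were chosen once their values were known. Mir7a-1 of the endocrine list is named Mir7-1 in the annotation and was not used in its sum; Mir375 and Mir7b summed to 41495 CPM in library 1 and 42104 CPM in library 2.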

Additional observations from a re-analysis of the deposited data

How the results depend on the processing

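Among 60 alternative values, no log2 ratio of a member or between members changed direction. With edgeR's exact test in place of the exact binomial test, the count of called genes was 5 in place of 240, and Mir26b kept its log2 ratio of 0.37 but lost its call (adjusted p = 1). With all reads of the table as library size, the mean level was 7293 CPM for Mir26b, 100.5 CPM for Mir26a-2 and 2.38 CPM for Mir26a-1, against 23399, 353 and 7.65 CPM, since that total also holds reads outside miRNA genes. Per base of gene length the log2 ratio of Mir26b over Mir26a-1 was 11.66 in place of 11.58. With no filter on low counts, 751 genes were tested, the log2 ratios of all genes shifted by -0.17, and 38.3% of the called genes were higher in library 1, against 49.6% with the filter. That share was 57.1% for library sizes with no TMM factor and 46.2% for DESeq2 size factors, so the balance of directions depended on the scaling. Over the alternatives, the log2 ratio of Mir26a-2 ran from 4.86 to 5.11, that of Mir26b from 0.20 to 0.46 and that of Mir26a-1 from 0.24 to 0.49. Mir26a-1 could not be tested with 100 or more reads required. Leaving out a library in turn gave 19.7 to 686 CPM for Mir26a-2, whose mean of 353 CPM thus rests on library 1, 19728 to 27071 CPM for Mir26b and 6.39 to 8.91 CPM for Mir26a-1. The log2 ratio of counts of Mir26a-2 over Mir26a-1 was 1.62 to 6.27, that of Mir26b over Mir26a-2 5.30 to 9.97 and that of Mir26b over Mir26a-1 11.57 to 11.59. No paired analysis was possible because both libraries belong to the same group. The other scalings of the intron list, chosen after the data were seen, gave 17 to 19 called genes. The median log2 ratio of the list was 0.005 with no TMM factor and -0.14 with DESeq2 size factors, against -0.08.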

Other observations

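In 23 of the 24 miRNAs made from identical copies, the same copy led in both libraries, and the exception was miR-29b. Mir29b-1 had 91 reads in library 1 and 48 reads in library 2, and Mir29b-2 had 33 and 59. The change in the share of reads between the copies was 28.5 percentage points for miR-29b and 23.2 percentage points for miR-26a, with a median of 3.54 percentage points over the 23 miRNAs other than miR-26a. No test was run on these shares.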
